A study of Mus musculus with 4 samples.

Results

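The 4 Hox clusters of the mouse genome were examined for 5-hydroxymethylcytosine (5hmC) in embryonic stem cells (ESC) and in neural progenitor cells (NPC) derived from them. The clusters were taken as fixed spans on genome build mm9, given by position, with no measured value in the rule. HoxA lay on chromosome 6 from 52100000 to 52220000 (120 kb), HoxB on chromosome 11 from 96050000 to 96235000 (185 kb), HoxC on chromosome 15 from 102745000 to 102875000 (130 kb) and HoxD on chromosome 2 from 74500000 to 74610000 (110 kb). They made up 109 of the 527794 tiles of 5 kb into which chromosomes 1 to 19 and X were divided, and all 109 passed the filter on input coverage. The 39 Hox genes they hold were listed by RefSeq as 11 in HoxA, 10 in HoxB, 9 in HoxC and 9 in HoxD. Each cluster was compared with 200 kb on either side. No mm9 annotation was used here, so positions inside a cluster carry no gene names.

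The ESC were 46C cells of strain 129/Ola, a single line with a GFP reporter of Sox1, an early neural gene. Serum and leukemia inhibitory factor kept them undifferentiated. From this line, monolayer differentiation in N2B27 medium gave the NPC, which were taken on day 9 as rosette-like Sox1-GFP+ cells. Neither cell type received an siRNA or shRNA. Each cell type gave 1 library of DNA pulled down with an antibody against 5hmC (hMeDIP-seq) and 1 input library set aside before the pull-down. The DNA of both cell types carried barcodes and shared a single tube for the pull-down. The spread between cultures is therefore unknown, no p-values were computed, and every interval below is a 95% interval of counting error alone. The files hold DNA reads, so the labelled cell types could not be checked against marker expression.

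Hox genes encode homeodomain transcription factors that specify position along the body axis. Their order in each cluster follows the order of their expression, from paralog group 1, used early and at the front, to group 13, used late and at the rear. In ESC the clusters are known as large domains of Polycomb-repressed chromatin with many CpG islands. 5hmC is made by TET dioxygenases from 5-methylcytosine, which in most mouse cells sits almost wholly at CpG dinucleotides. CpG density over the spans, expression of the Hox genes and TET activity were not measured here.

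How far CpG density can differ between Hox genes is shown by 2 promoter sequences from RefSeq, both on the minus strand of build GRCm38.p6, which is not the build of the reads. Each covers 250 bases before to 50 bases after the annotated start, and capitals mark CpG dinucleotides. Hoxa13, a group 13 gene needed for digit and urogenital development, had the most CpG among the Hox promoters in that table (chr6:52260831-52261130, 45 CpG). Hoxa9, known for its role in blood progenitors and leukemia, had the fewest (chr6:52227321-52227620, 4 CpG). The median over all 32851 promoter entries was 7 CpG, and 1.93% of them held at least as many as Hoxa13.
Hoxa13: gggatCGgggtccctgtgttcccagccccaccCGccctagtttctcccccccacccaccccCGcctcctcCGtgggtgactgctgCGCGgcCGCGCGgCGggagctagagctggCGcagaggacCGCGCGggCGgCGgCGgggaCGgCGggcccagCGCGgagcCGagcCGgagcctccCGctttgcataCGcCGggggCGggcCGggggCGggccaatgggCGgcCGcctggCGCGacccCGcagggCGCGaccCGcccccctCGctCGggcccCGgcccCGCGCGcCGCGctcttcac
Hoxa9: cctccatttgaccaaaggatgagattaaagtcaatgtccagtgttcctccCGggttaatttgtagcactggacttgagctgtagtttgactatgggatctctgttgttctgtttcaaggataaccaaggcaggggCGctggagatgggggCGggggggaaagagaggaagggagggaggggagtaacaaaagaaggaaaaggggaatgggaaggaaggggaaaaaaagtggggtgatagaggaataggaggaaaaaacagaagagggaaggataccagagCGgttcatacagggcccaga
Promoters were listed for 22 of the 39 Hox genes (56.4%). This is under the minimum of 80% set for a summary of base composition, so that check is void and no value for the Hox promoters as a set is given. The sequences show composition alone: reads could not be assigned to them across builds.

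The first comparison asked how much 5hmC the clusters carried in each cell type. In ESC all 4 clusters were richer in 5hmC than the genome, by 1.31-fold to 1.89-fold. In NPC they stood between 0.959-fold and 1.27-fold the genome-wide level, with HoxB above it beyond counting error and HoxC barely so. Levels are given as distinct 5hmC reads per distinct input read, where 1 read was counted per deposited position and strand. Over chromosomes 1 to 19 and X that level was 1.41 in ESC and 0.265 in NPC. A level depends on the depth of its 2 libraries and is read against the genome. The labels place both cell types in 1 tube up to the pull-down, and whether they were also sequenced as 1 pool is not stated in the sources used here. Ratios between cell types are therefore read against the genome's ratio as well.

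HoxA, which holds Hoxa2, a gene that patterns the hindbrain, held 835 ESC 5hmC reads over 316 input reads and 107 NPC 5hmC reads over 411 input reads. Its ESC level of 2.64 was 1.88-fold that of the genome (1.65 to 2.14). Its NPC level of 0.260 was 0.984-fold (0.796 to 1.22). HoxB, with Hoxb1 of the hindbrain and the blood-associated Hoxb4, held 1320 over 495 reads in ESC and 226 over 674 in NPC. Its ESC level of 2.67 was 1.89-fold that of the genome (1.71 to 2.10), nearly the value of HoxA, and its NPC level of 0.335 was 1.27-fold (1.09 to 1.47). HoxB was thus above the genome in both cell types beyond counting error.

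HoxC, the cluster that lacks genes of groups 1 to 3, held 704 over 381 reads in ESC and 136 over 422 in NPC. Its ESC level of 1.85 was the lowest of the 4, at 1.31-fold that of the genome (1.16 to 1.49). Its NPC level of 0.322 was 1.22-fold (1.004 to 1.48), an interval that barely excluded 1. Without the tile from 102860001 to 102865000, chosen as the richest in NPC 5hmC reads, the value was 1.07 (0.873 to 1.32). HoxD, whose group 10 to 13 genes shape the limbs and digits, held 669 over 280 reads in ESC and 84 over 331 in NPC. Its ESC level of 2.39 was 1.70-fold that of the genome (1.48 to 1.95) and its NPC level of 0.254 was 0.959-fold (0.755 to 1.22).

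**Figure D1:**
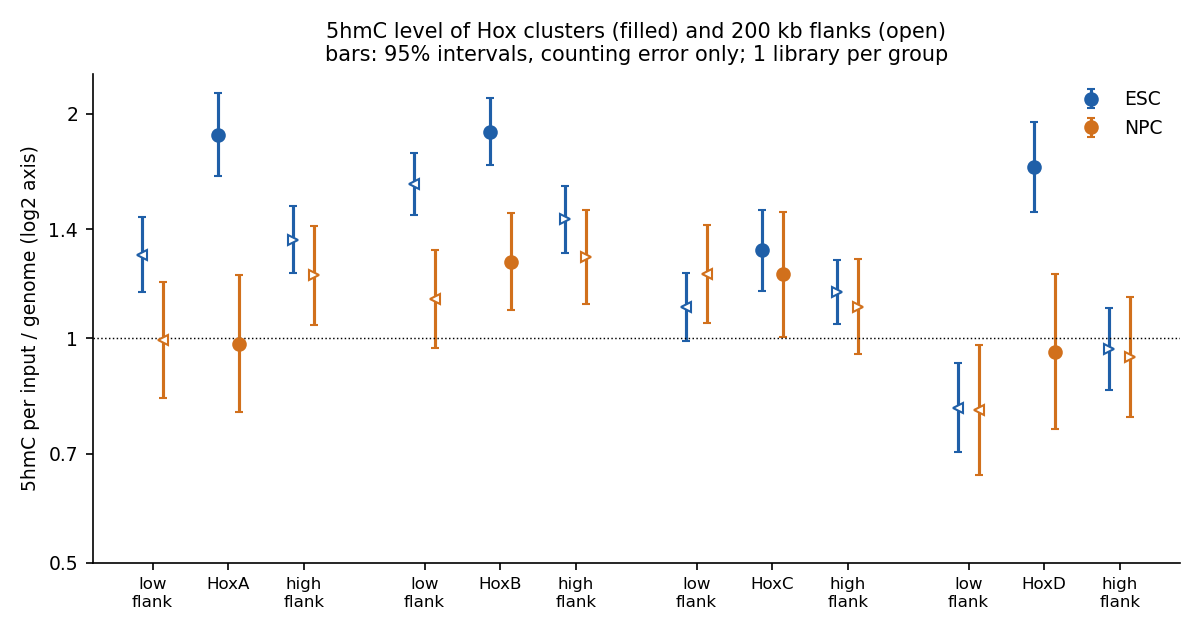
5hmC reads per input read relative to the genome (vertical log2 axis) for each Hox cluster (filled circles) and its 200 kb flanks at lower and higher coordinates (open triangles), in ESC (blue) and NPC (orange), with 95% intervals of counting error and 1 library per group. The ESC points of the clusters run from 1.31 to 1.89, while the NPC points run from 0.959 to 1.27.

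Summed over the 4 clusters, the ESC level was 2.40 5hmC reads per input read, 1.70-fold that of the genome (1.60 to 1.81). The summed NPC level was 0.301, 1.14-fold that of the genome (1.03 to 1.25). Without each cluster's tile richest in NPC 5hmC reads it was 1.06-fold (0.964 to 1.18). Those tiles were chosen by the same reads and the genome was not trimmed alike, so a fall was largely built in. Whether the NPC excess rests on few tiles was therefore not tested.

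The NPC/ESC ratio, the NPC level divided by the ESC level, was 0.188 over the genome, and HoxA, HoxB and HoxD lay below it beyond counting error. It was 0.0985 in HoxA (0.0768 to 0.126), 0.106 in HoxD (0.0805 to 0.140) and 0.126 in HoxB (0.105 to 0.151). In HoxC it was 0.174 (0.139 to 0.220), an interval that includes the genome value. A background of 0.159 reads per input read, an NPC value, was then subtracted from the levels of both cell types. Every ratio was over 1.5 times lower, at 0.0409 in HoxA, 0.0426 in HoxD and 0.0704 in HoxB, against 0.0846 for the genome. HoxC, at 0.0968, was then above the genome value instead of below it. The subtracted ratios have no interval, so this change of side is within what counting error may give. The summed ratio was 0.126 (0.112 to 0.141).

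With each cell type's own input as denominator, HoxC stood apart from the other clusters, and the others did not differ beyond counting error. Among the 6 pairs of clusters, the interval of the NPC/ESC ratio excluded equality in 3, each of which involved HoxC. The HoxA ratio was 0.565 times that of HoxC (0.402 to 0.793), the HoxB ratio 0.721 times (0.537 to 0.967), and the HoxC ratio 1.64 times that of HoxD (1.15 to 2.35). In ESC level too, 3 pairs differed and each involved HoxC, where HoxA and HoxB reached 1.43 times (1.19 to 1.71) and 1.44 times (1.23 to 1.70) the level of HoxC. No pair differed in NPC level (0 of 6), and the widest pair there was HoxB over HoxD at 1.32 times (0.996 to 1.75). These intervals are not adjusted for the 6 pairs.

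Input coverage was measured in the same spans as the background of these values. The clusters held a mean of 13.5 ESC and 16.9 NPC input reads per tile. Over all kept tiles the median, which is not a like measure, was 10 and 13. The NPC/ESC ratio of input shares was 0.959 for the 4 clusters together (0.895 to 1.03). It was 0.851 in HoxC (0.741 to 0.977), the single cluster whose interval excluded 1. With the inputs of both cell types summed as a common denominator, the NPC/ESC ratio was 0.148 in HoxC and 0.131 in HoxB, with HoxA and HoxD lower at 0.0984 and 0.0964. The ESC level of HoxC relative to the genome was then 1.43, against 1.31 with its own input. No intervals were computed with summed inputs, so whether HoxC still stands apart was not tested. Over the 4 clusters, 48.9% of ESC 5hmC reads (47.3% to 50.6%, exact binomial) and 47.4% of NPC 5hmC reads (43.1% to 51.6%) were on the plus strand. Among the input libraries, NPC stood at 52.9% (50.6% to 55.2%) and ESC at 49.5% (46.9% to 52.1%). In HoxB 46.7% of ESC 5hmC reads were on the plus strand (43.9% to 49.4%), and its NPC input was at 54.6% (50.8% to 58.4%). The part of these imbalances in the results was not tested.

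The second comparison set each cluster against its own surroundings. Every cluster was richer than its flanks in ESC, most of all HoxD. The genes next to HoxD in RefSeq are Evx2, a homeobox gene, on the group 13 side and Mtx2 on the group 1 side. Its flanks held 1001 over 798 reads in ESC, a level of 1.254. They were below the genome at 0.891-fold (0.812 to 0.978), so that the HoxD level was 1.90 times that of its flanks (1.61 to 2.25). Without its tile richest in ESC 5hmC reads HoxD was at 1.67 times (1.401 to 1.98). That tile was chosen by the same reads and the flanks were not trimmed alike, so a fall was largely built in. HoxA exceeded its flanks by 1.41 times (1.21 to 1.64), with flanks that were themselves 1.33-fold above the genome (1.23 to 1.44). Its neighbours in RefSeq are Skap2 on the side of lower coordinates and Evx1, a relative of Evx2, at the group 13 end.

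HoxB was 1.24 times its flanks (1.09 to 1.401) and HoxC 1.16 times (1.006 to 1.34). For both, the interval against the flanks depended on how they were drawn. With flanks of 100 kb the HoxB value was 1.14 (0.988 to 1.31), and the 50 kb next to its group 13 end stood at 2.27-fold the genome (1.90 to 2.70). For HoxC the same change raised the value to 1.46, where the 100 kb nearest its group 13 end stood at 0.628-fold (0.489 to 0.807) and 0.725-fold (0.575 to 0.914) in successive bins of 50 kb. Leaving out the HoxC tile richest in ESC 5hmC reads gave 1.11 (0.958 to 1.29), a fall that was largely built in, as for HoxD. Whether the HoxC excess over its flanks rests on few tiles was therefore not tested.

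In NPC no cluster differed from its 200 kb flanks beyond counting error. The NPC level relative to flanks was 0.884 in HoxA (0.694 to 1.13), 1.05 in HoxB (0.875 to 1.26), 1.05 in HoxC (0.845 to 1.31) and 1.10 in HoxD (0.834 to 1.45). With flanks of 100 kb HoxA was at 0.753 (0.579 to 0.980), and the 50 kb next to its lower-coordinate end held 71 NPC 5hmC reads over 140 input reads, 1.92-fold the genome (1.44 to 2.55). The difference between cell types itself is the NPC/ESC ratio of the cluster over that of its flanks. It was 0.577 in HoxD (0.418 to 0.796) and 0.626 in HoxA (0.470 to 0.833), and the intervals of HoxB (0.850, 0.681 to 1.06) and HoxC (0.906, 0.696 to 1.18) included 1. For the 4 clusters together it was 0.754 (0.661 to 0.861). Whether this quantity differs from one cluster to another was not tested.

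**Figure D2:**
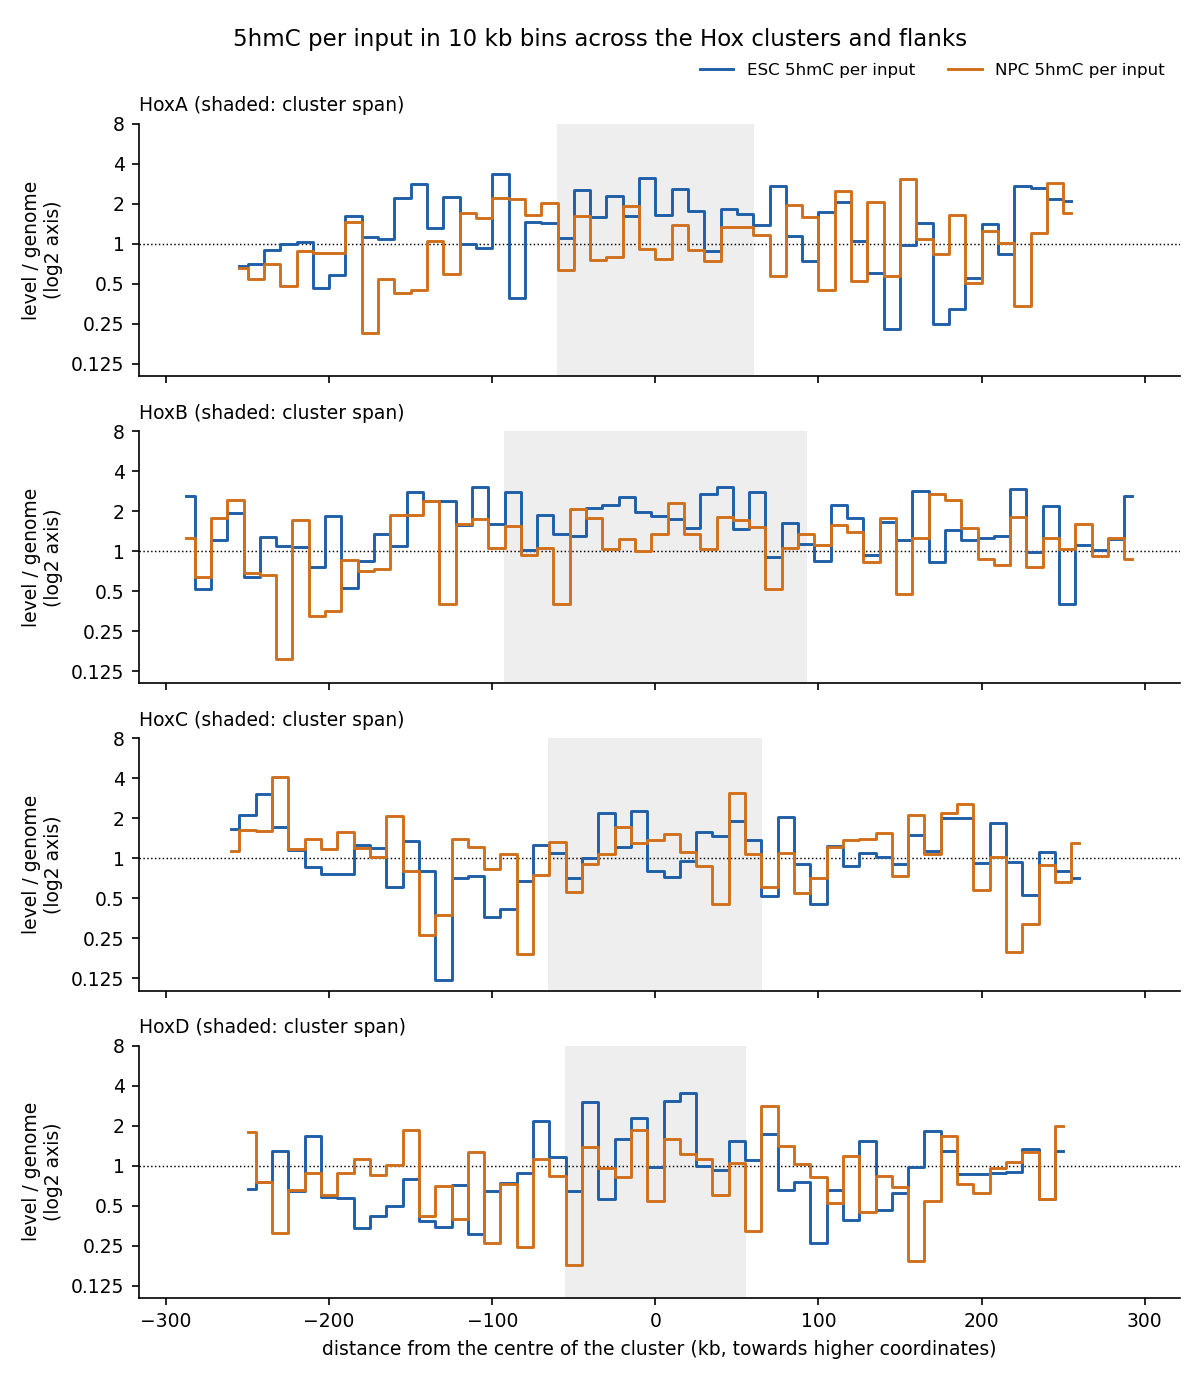
5hmC reads per input read relative to the genome (vertical log2 axis, pseudocount of 0.5 reads) in bins of 10 kb, by distance from the centre of each cluster in kb, for ESC (blue) and NPC (orange), with the cluster span shaded. The ESC line lies mostly above 1 inside the spans, most clearly against its surroundings in HoxD, where the cluster was 1.90 times its flanks.

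Windows of the same length over the 19 autosomes placed these levels in the genome. HoxA lay above 92.2% of 19486 windows of 120 kb in ESC level, HoxB above 93.1% of 12645 windows, HoxD above 88.8% of 21253 and HoxC above 78.5% of 17983. In NPC level HoxA and HoxD lay nearer the middle, above 62.6% and 59.5% of windows, and HoxB and HoxC above 87.3% and 83.3%. The NPC/ESC ratio exceeded 4.41% of windows in HoxA, 6.67% in HoxD, 11.7% in HoxB and 29.2% in HoxC. The ratio holds the ESC level as its denominator, so each cluster was also read against windows in its own decile of ESC level. HoxA and HoxB fell in decile 10, HoxD in decile 9 and HoxC in decile 8. The ESC levels in these deciles ran from 2.47 to 5.85 for HoxA and 2.46 to 5.01 for HoxB. They ran from 1.51 to 1.92 for HoxC and 1.92 to 2.47 for HoxD. HoxA and HoxB lay near the lower bound, HoxC and HoxD near the upper, so a decile does not match the ESC level closely. The median ratio was 0.114 for windows in the decile of HoxA (5th to 95th percentile 0.0735 to 0.179) and 0.117 for HoxB (0.0786 to 0.174). It was 0.160 for HoxC (0.104 to 0.251) and 0.136 for HoxD (0.0889 to 0.214). All 4 clusters lay inside these ranges, HoxA, HoxB, HoxC and HoxD at the 29.7th, 62.8th, 63.1st and 18.4th percentile.

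**Figure D3:**
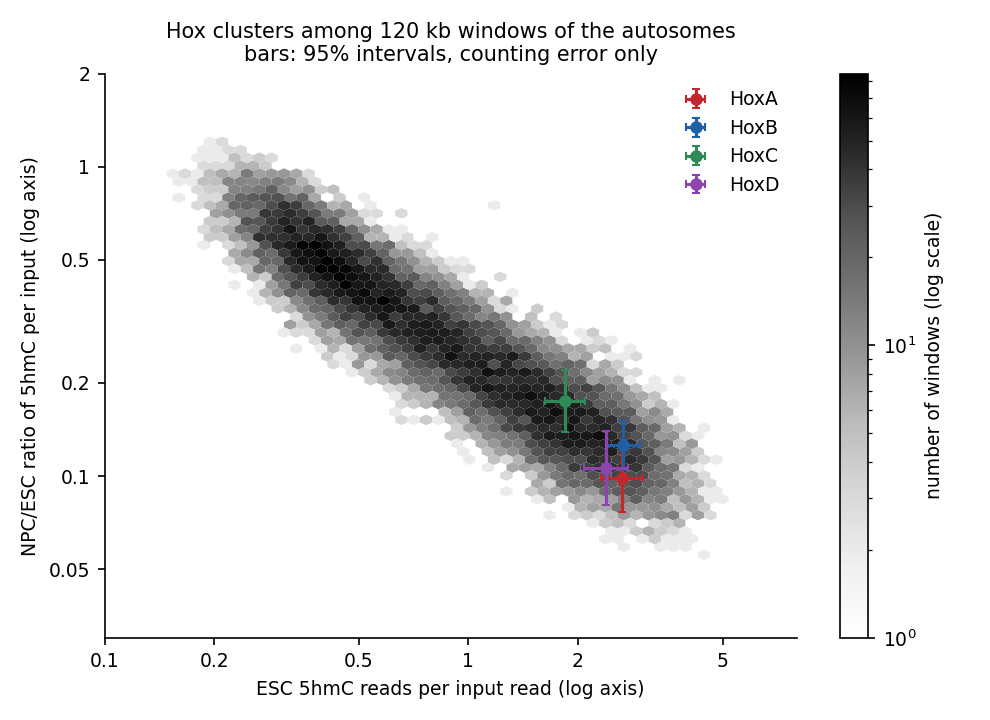
NPC/ESC ratio of 5hmC per input (vertical log axis) against ESC 5hmC reads per input read (horizontal log axis) for 19486 autosomal windows of 120 kb (grey, darker for more windows) and the 4 Hox clusters at their own lengths (coloured points with 95% intervals of counting error). The clusters lie at the 5hmC-rich end, inside the band of windows with like ESC level. Both axes hold the ESC level, so the slope of the band is partly built in.

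Within the clusters, tiles of 5 kb showed how the signal was spread. A tile was called enriched at 10 or more 5hmC reads and at least 2-fold over its own input, relative to the genome. In ESC 35 of the 109 Hox tiles (32.1%) were enriched, against 10.6% of all 476819 kept tiles. HoxB contributed 17 of 37 tiles, HoxA 8 of 24, HoxC 5 of 26 and HoxD 5 of 22. The flanks had 54 of 320 (16.9%). Tiles poor in ESC 5hmC, at no more than 0.5 of the genome level, were few in the clusters. They numbered 6 of 109 (5.50%), against 62 of 320 flank tiles (19.4%) and 46.4% of all kept tiles. None of the 6 lay in HoxA. The median Hox tile stood at 1.60 times the genome in ESC, the median flank tile at 1.02 and the median of all kept tiles at 0.552.

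In NPC 4 of the 109 tiles (3.67%) were enriched, against 5.82% of all kept tiles and 31 of 320 flank tiles (9.69%). Of these, 3 lay in HoxB and 1 in HoxC, and 2 were enriched in ESC as well. Tiles at no more than 0.5 of the genome level in NPC numbered 15 (13.8%), against 71 of 320 flank tiles (22.2%) and 26.3% of all kept tiles. The median Hox tile held 5 NPC 5hmC reads, below the minimum of 10 for an enrichment call, so that NPC calls were possible in few tiles. With the minimum removed 13 Hox tiles (11.9%) were enriched, against 14% of all.

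Tiles called enriched in ESC formed short runs, and any tile under the cut ended a run. The longest run was 20 kb in HoxB, from 96110001 to 96130000, and 10 kb in each of the other clusters. Run lengths elsewhere are not given. Above the genome level in ESC, with no 2-fold cut, were 82 of the 109 Hox tiles, against 163 of 320 flank tiles and 142211 of the 476819 kept tiles. Inside the clusters, ESC-enriched and other tiles did not differ in NPC level beyond counting error. It was 0.321 in the 35 ESC-enriched Hox tiles (193 over 602 reads) and 0.291 in the other 74 (360 over 1236 reads), a ratio of 1.10 (0.901 to 1.34). Over all kept tiles, those enriched in ESC had 1.66 times the NPC level of the rest (1.66 to 1.67). The Hox value was 0.661 times that of the other kept tiles (0.541 to 0.808). Both kinds of tile entered that difference. Relative to the genome, the NPC level was 1.21 in ESC-enriched Hox tiles and 1.52 in all ESC-enriched tiles, while it was 1.10 in the other Hox tiles and 0.911 in all other tiles. The remaining tiles are not alike, since few Hox tiles were poor in ESC 5hmC.

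Single tiles were named by a fixed rule among those with at least 10 reads in each input. The Hox tile with the highest ESC level by that rule lay in HoxD, on chromosome 2 from 74510001 to 74515000. In ESC 113 5hmC reads fell there over 14 input reads, a level of 8.07 (4.62 to 15.2) or 5.73 times the genome, and in NPC 6 over 14. Its NPC/ESC ratio was 0.0531 (0.0147 to 0.181). The reads gathered in its upper part, with 37, 48 and 17 of the 113 in the last 3 bins of 1 kb, and fell on both strands (51 plus and 62 minus). It bordered the poorest HoxD tile, from 74505001 to 74510000, where ESC had 10 reads over 18 and NPC 1 over 17. By that rule the richest and the poorest tile of HoxD were thus neighbours near its group 13 end. Without the minimum of input reads, the tile from 74540001 to 74545000 was richer, with 27 over 2 reads in ESC.

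In HoxA the richest tile by that rule ran from 52170001 to 52175000, with 79 over 12 reads in ESC (level 6.58, 3.57 to 13.3) and 6 over 19 in NPC. Of its 79 ESC reads, 43 lay in the first 1 kb, and 52 were on the plus and 27 on the minus strand. The poorest HoxA tile by that rule, from 52190001 to 52195000, had 15 over 15 in ESC and 1 over 21 in NPC. The tile from 52180001 to 52185000, with too few NPC input reads for the rule, was poorer in ESC. It had 9 over 12 reads in ESC and 5 over 6 in NPC. In HoxB the tile from 96185001 to 96190000 was highest by that rule in both cell types. It had 58 over 11 reads in ESC (5.27, 2.74 to 11.1) and 12 over 17 in NPC (0.706, 0.308 to 1.57). Tiles with too few input reads for the rule were higher. That from 96150001 to 96155000 had 13 over 9 reads in NPC (1.44, 0.571 to 3.83) and was enriched in both cell types. That from 96205001 to 96210000 had 38 over 4 in ESC. In HoxC the highest tile by that rule had 42 over 11 reads (3.82, 1.93 to 8.22), from 102745001 to 102750000 at the edge of the span. Over all tiles, with fewer input reads allowed and the pseudocount added, the ESC maximum was 7.81 times the genome in HoxD. It was 6.08 times in HoxB, 4.40 times in HoxC and 4.52 times in HoxA.

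The tile with the highest NPC level by the rule lay in HoxC, from 102860001 to 102865000 on chromosome 15. In NPC 21 5hmC reads fell there over 17 input reads, a level of 1.24 (0.621 to 2.49) or 4.67 times the genome, against 34 over 13 in ESC (2.62, 1.35 to 5.40). HoxC had 136 NPC 5hmC reads in all, and of the 21 in this tile 12 were on the plus strand and 9 on the minus strand. Its NPC/ESC ratio was 0.472 (0.173 to 1.28), an interval that includes the genome's 0.188. The highest ratios by the rule were 0.364 in HoxA, 0.457 in HoxB, 0.706 in HoxC and 0.375 in HoxD, each from 5 to 9 NPC 5hmC reads. The interval lay above 0.188 in HoxC alone (0.215 to 2.27), in the tile from 102820001 to 102825000 with 17 over 20 reads in ESC and 9 over 15 in NPC. Named tiles are extremes of 16 to 26 tiles per cluster, or of 38 to 72 in the flanks, which their intervals do not take into account.

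Near HoxB and HoxC the richest flank tile by the rule had a higher ESC level than the richest tile of the cluster. Near HoxA and HoxD it had a lower one. The richest by the rule had 64 over 10 reads in ESC near HoxB (from 96305001 to 96310000, level 6.40, 70 kb from the span). Near HoxC it had 100 over 14 (from 102565001 to 102570000, level 7.14, 175 kb away). Near HoxA the tile from 52405001 to 52410000 reached 5.58, against 6.58 in the cluster. Near HoxD the tile from 74725001 to 74730000 held 45 over 14 ESC reads, a level of 3.21 against 8.07 in the cluster. That flank tile had 0 NPC 5hmC reads over 12 input reads, with an NPC/ESC ratio of at most 0.135.

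Each cluster was also divided into 4 equal parts, numbered from the end of paralog group 1 (group 4 in HoxC) to the group 13 end, with the gene order taken from RefSeq. In ESC 13 of the 16 parts lay above the genome beyond counting error and 0 below, with values from 0.949 to 2.85. In NPC 2 of 16 lay above, part 2 of HoxB at 1.52 (1.15 to 2.02) and part 1 of HoxC at 1.47 (1.05 to 2.07), and 0 below. Among 32 flank bins of 50 kb, 14 lay above and 5 below in ESC, and 7 above and 4 below in NPC. ESC 5hmC was highest in part 2 of HoxD, at 2.85 times the genome (2.16 to 3.77) from 249 over 62 reads, and that part was 2.65 times part 1 (1.80 to 3.90). HoxC alternated: parts 1 and 3 stood at 1.65 (1.28 to 2.13) and 1.83 (1.43 to 2.34), and parts 2 and 4 at 0.949 (0.739 to 1.22) and 0.952 (0.735 to 1.23).

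The ends of a cluster differed beyond counting error in HoxC alone. Over the 4 clusters together the ESC level of part 1 was 1.09 times that of part 4 (0.912 to 1.29). By cluster that value was 1.11 in HoxA (0.759 to 1.64), 1.03 in HoxB (0.768 to 1.39), 1.74 in HoxC (1.21 to 2.49) and 0.698 in HoxD (0.476 to 1.02). The inner parts 2 and 3 were at 1.92 (1.70 to 2.17) and 1.97 (1.74 to 2.22) times the genome, above part 4 at 1.41 (1.24 to 1.60). In NPC the summed parts ran from 0.993 (0.812 to 1.21) in part 4 to 1.28 (1.06 to 1.54) in part 2, and their intervals overlapped.

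**Figure D4:**
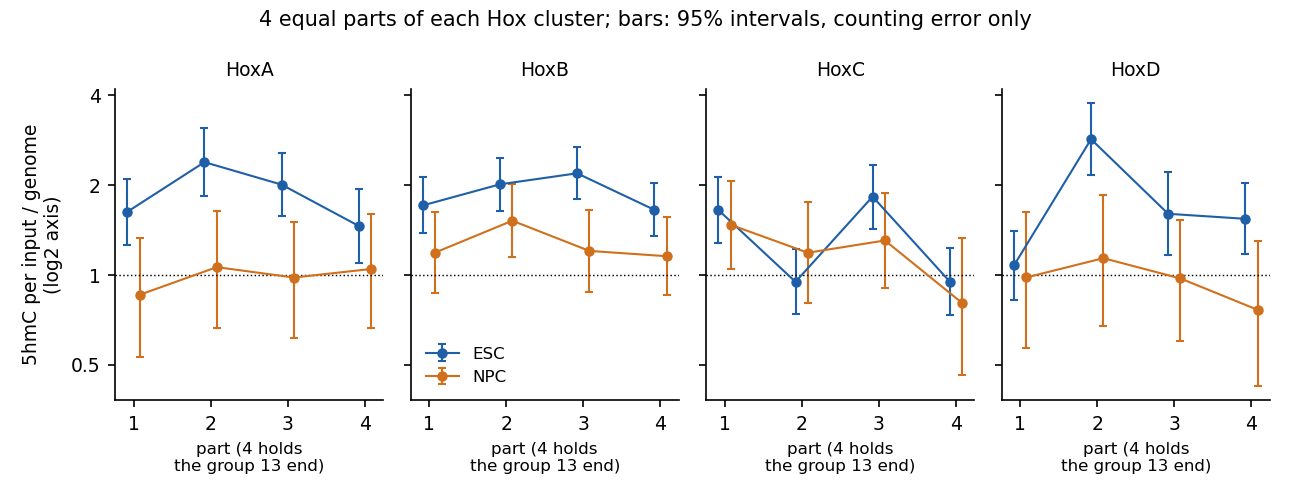
5hmC reads per input read relative to the genome (vertical log2 axis) in 4 equal parts of each Hox cluster, numbered towards the group 13 end, in ESC (blue) and NPC (orange) with 95% intervals of counting error. Part 2 of HoxD reaches 2.85 in ESC, and the NPC points lie between 0.765 and 1.52.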

How the data were processed

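The members and comparisons were chosen with earlier results of these data known. Reads had been aligned with Bowtie 0.12.7 to mm9, per the submitters' processing notes. Filters and the treatment of reads with several matches: not given in the sources used here. Each deposited file lists positions extended to 350 bp with a whole-number count of reads per position and strand, which the authors had not scaled as far as the values show. One distinct read was taken per line and placed by its midpoint. There were 7123491 ESC 5hmC, 5059243 ESC input, 1742680 NPC 5hmC and 6588254 NPC input distinct reads on chromosomes 1 to 19 and X.

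Tiles of 5 kb needed 5 or more summed input reads and at most 5 times the median of 23. A pseudocount of 0.5 reads was used for tile calls and for the plot of 10 kb bins. Counts in regions and tiles were computed in Python 3.11.15 (scipy 1.17.1, numpy 2.4.6, pandas 2.3.3). With 1 library per group there is no test between conditions. Intervals of odds ratios are exact conditional intervals, or normal on the log scale where every count was 30 or more. Those of a level are exact (Clopper-Pearson). Intervals cover counting error only, since each group holds 1 library. They treat distinct reads as independent molecules, which PCR copies are not. The calls and intervals were tested on simulated data. Named tiles are, per cluster, those with the highest and lowest ESC level, the highest NPC level and the highest NPC/ESC ratio, and the highest ESC level in the flanks. Alternatives changed the reads counted, their placement, the spans, flanks, inputs, background, pseudocount and tiles. Cluster pairs, deciles of windows, NPC levels by ESC call and bins of 50 kb were added after seeing the data. Windows of equal length needed at least 0.5 of their tiles kept.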

Additional observations from a re-analysis of the deposited data

Results flagged for a closer look

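The cell types lay on opposite sides of a reference in 3 values. The ESC level of HoxA was 1.88 times that of the genome (1.65 to 2.14), while its NPC level was 0.984 times (0.796 to 1.22). For HoxD the ESC value was 1.70 (1.48 to 1.95), while the NPC value was 0.959 (0.755 to 1.22). Against its flanks HoxA had 1.41 in ESC (1.21 to 1.64), while NPC had 0.884 (0.694 to 1.13). With 1 library per group these differences between conditions were not tested, and each NPC interval includes 1. With spans trimmed by 10 kb the NPC values against the genome were 1.01 in HoxA and 1.05 in HoxD, on the same side as ESC, and that of HoxA against its flanks was 0.904, on the opposite side.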

How the results depend on the processing

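Of 248 recomputed values, 235 kept their place and 13 moved. Most alternatives recount much the same reads, so a kept place is not independent support. Keeping only tiles that pass the input filter left the NPC/ESC ratios and the values against flanks unchanged, since all 109 Hox tiles pass it. Among 190 values relative to the genome or flanks, 6 crossed 1, all NPC levels whose reported interval includes 1. Besides the 2 trimmed spans above, these were relative to flanks: with flanks of 100 kb 0.906 in HoxB and 0.989 in all 4, and without the tiles richest in NPC 5hmC reads 0.928 in HoxC and 0.967 in all 4. For regional values, a move means leaving the interval of the reported value. For tile counts, it means a change of over 1.5 times. A background of 0.159 reads per input read, the NPC level of the tiles poorest in ESC 5hmC, was subtracted from the levels of both cell types. The NPC/ESC ratio became 0.0409 in HoxA, 0.0704 in HoxB, 0.0968 in HoxC, 0.0426 in HoxD and 0.0635 in all 4, against 0.0846 for the genome. HoxC then lay above the genome value and the other 3 below it. Flanks of 100 kb raised the ESC level of HoxC relative to flanks to 1.46. With a pseudocount of 5 reads, 19 Hox tiles were enriched in ESC (17.4%, against 6.67% of all tiles) and 0 were poor in NPC, a call that 0.0117% of all tiles then reached. On a grid shifted by 2.5 kb, 7 were enriched in NPC (6.42%, against 5.78%), and with no minimum of reads 13 were. With tiles of 10 kb, 17 of 54 were enriched in ESC (31.5%, against 9.04%), 1 was poor in ESC (1.85%, against 45.8%) and 2 in NPC (3.7%, against 21.7%); that grid has fewer tiles by construction.

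Of 165 alternatives relative to the genome or flanks that have an interval, 8 changed whether it included 1. Those not given above were the HoxC values with all deposited reads: 1.21 (0.997 to 1.47) for NPC against the genome and 1.15 (0.997 to 1.33) for ESC against its flanks. The latter was also 1.15 (0.990 to 1.33) without the HoxC tile richest in NPC 5hmC reads. Leaving out the richest tiles was chosen after seeing the data, and a fall in the level of the cell type that chose them was largely built in. No paired analysis was possible because each group holds 1 library. Depth limited NPC most, with 84 to 226 5hmC reads per cluster.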
